A study of Mus musculus with 9 samples.

Results

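The transcripts of 10 genes that encode RNA-binding proteins other than the tristetraprolin (TTP) family were followed in macrophages expressing GFP, TTP or a mutant of TTP. The genes were picked by symbol, mostly for what their proteins bind, namely AU-rich elements (AREs) or stem-loops in mRNA 3′UTRs. They were Elavl1, Hnrnpd, Khsrp, Tia1, Tial1, Rc3h1, Rc3h2, Zc3h12a, Zc3h12c and Mex3c. All 10 were found among the 25494 genes of the library table, and all 10 were listed in each comparison, among 11977 genes for TTP vs GFP and among 13205 for either comparison with TTP-AA.

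The cells were mouse bone marrow-derived macrophages without functional TTP, which had been immortalized with the oncogenes hcmyc and hRasG12V and selected for the macrophage surface proteins CD11b and the Adgre1 product. They carried a tet-inducible all-in-one vector that encoded GFP alone, GFP-TTP or its mutant GFP-TTP-AA, and the mutant has the serines that the kinase MK2 phosphorylates replaced by alanine. All 9 libraries, 3 per group, came from cells given doxycycline at 1 µg/ml for 6 h and lipopolysaccharide (LPS, a bacterial cell wall component) at 1 µg/ml for 1 h. Every group, GFP included, thus shared the TTP deficiency, the oncogenes and both treatments (libraries without them were not analysed here), and a property of the transduced cell population cannot be told apart from the construct it carried.

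AREs are AU-rich stretches through which proteins set how long an mRNA lasts and how well it is translated. TTP recruits deadenylases to them, and after LPS its phosphorylation by MK2 weakens this activity, so that the alanine mutant stays active. Several other proteins read the same elements. HuR, encoded by Elavl1, mostly stabilizes its targets, AUF1 (Hnrnpd) and KSRP (Khsrp) are mostly known for promoting decay, and TIA1 (Tia1) and TIAR (Tial1) repress translation and build stress granules. A second group reads short hairpins. Roquin-1 (Rc3h1) and Roquin-2 (Rc3h2) bind a stem with a small loop and recruit deadenylases. Regnase-1 (Zc3h12a) and Regnase-3 (Zc3h12c) belong to a family of endonucleases that limit inflammatory mRNAs in macrophages. Apart from both groups, MEX3C (Mex3c) joins RNA-binding KH domains to a ubiquitin ligase domain.

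The genes are themselves possible targets of such proteins, so the sequences that they carry are shown first. For each gene, the transcript of longest coding sequence was taken and its 3′UTR searched on its sense strand for the ARE nonamer TTATTTATT, its core heptamer TATTTAT and the hairpin nonamer TTCTGTGAA, in which TTC and GAA can pair around the loop TGT. Overlapping matches were counted, and each nonamer TTATTTATT also holds the heptamer. All are GENCODE release 21 transcripts on GRCm38, and the capitals mark the match. The first set shows the first and the last nonamer of the cluster in Elavl1 and the single nonamers of both Roquin genes.

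Elavl1, chr8:4285788-4285816, minus strand: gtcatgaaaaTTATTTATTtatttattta
Elavl1, chr8:4285742-4285770, minus strand: gtttatttatTTATTTATTacttgtgagt
Rc3h1, chr1:160970043-160970071, plus strand: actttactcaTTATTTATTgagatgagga
Rc3h2, chr2:37373287-37373315, minus strand: caaagacattTTATTTATTttactctgta

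The second set shows the hairpin nonamers in the genes for the hairpin-binding Roquins, beside the one in Tnf, the textbook Roquin target. The number of consecutive Watson-Crick pairs around the TGT loop was 3 at the first site of Rc3h1 and 6 at each of the others.

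Rc3h1, chr1:160968032-160968060, plus strand: tttgtttttgTTCTGTGAAtgaactttat
Rc3h1, chr1:160971653-160971681, plus strand: agccaataacTTCTGTGAAgttgcctttt
Rc3h2, chr2:37373802-37373830, minus strand: tttaattaacTTCTGTGAAgttgtttact
Tnf, chr17:35199578-35199606, minus strand: cagacatgttTTCTGTGAAaacggagctg

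Elavl1 held 8 matches of TTATTTATT, most of them overlapping, that started between bases 3794 and 3840 of a 3′UTR of 4218 bases. Of 11415 listed genes with a 3′UTR, 7.11% held the nonamer at all and 4 held it at least 8 times. Rc3h1 and Rc3h2 held it 1 time each, at bases 2256 of 7181 and 1928 of 5160, and the other 7 genes did not hold it. The heptamer TATTTAT, present in 27.4% of 3′UTRs, was found 8 times in Elavl1, 3 times in Rc3h2, 2 times each in Rc3h1 and Zc3h12c, and 1 time each in Tia1 and Tial1. Hnrnpd, Khsrp, Zc3h12a and Mex3c had none, although Hnrnpd has a 3′UTR of 5429 bases. The hairpin nonamer TTCTGTGAA was found in 2.46% of 3′UTRs. Among the 10 genes it stood 2 times in Rc3h1 and 1 time in Rc3h2, and in no other. At least 5 pairs around the loop were found in 46 of the 11415 genes (0.403%), both Roquin genes among them. These matches describe the letters of 1 transcript per gene. They do not show that a protein binds there, and the median 3′UTR of all genes, at 960 bases, was shorter than those of all members except Zc3h12a (856 bases).

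**Figure D1:**
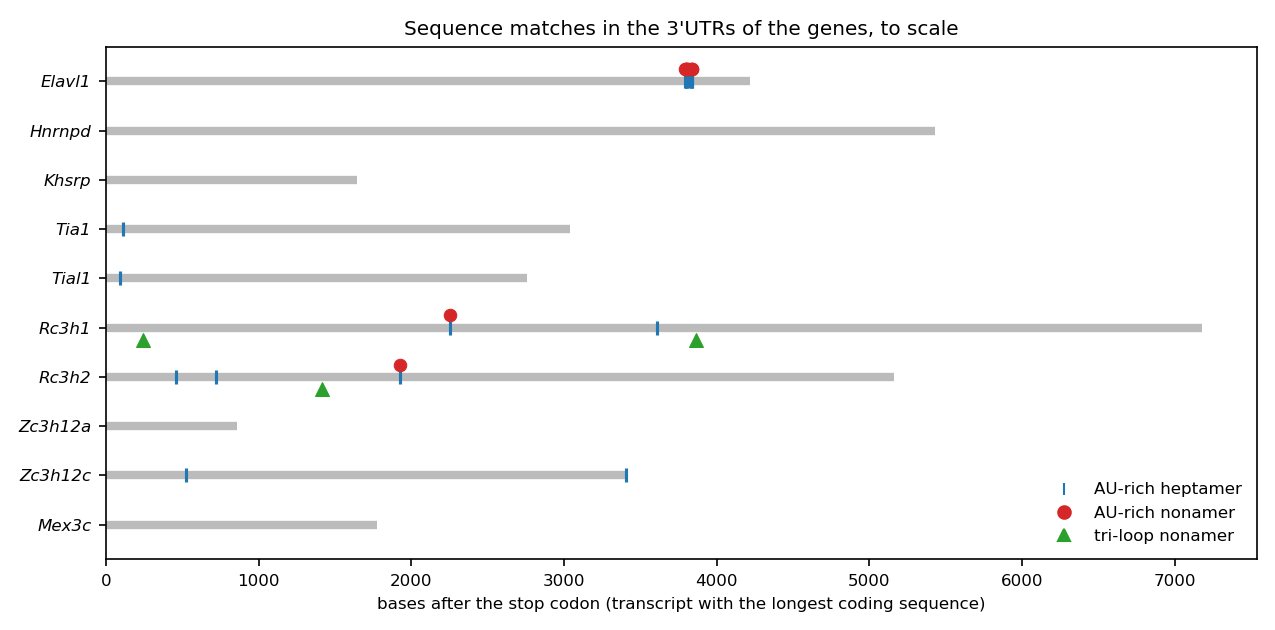
Positions of the 3 searched sequences in the 3′UTRs of the 10 genes, drawn to scale from the stop codon (x axis, bases). Blue ticks are the heptamer TATTTAT, red circles the nonamer TTATTTATT and green triangles the hairpin nonamer TTCTGTGAA. The 8 nonamers of Elavl1 crowd near the end of its 3′UTR, and the green triangles stand only in Rc3h1 (2) and Rc3h2 (1).

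The map of matches along the 3′UTRs shows that, of the 10 genes, only the Roquin genes carried both an ARE nonamer and a hairpin nonamer.

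The library values need a caution that touches every level below. The deposited library table held means fitted by the authors' DESeq2 model (the product of a library factor with terms for replicate number and for condition) rather than measured counts, so it carries no scatter and the shift between groups is the same at each replicate number by construction. Fitted means summed to between 21482954 and 38032238 reads in 8 libraries and to 102613526 in TTP-AA replicate 3. Fitted normalized levels were obtained by dividing by the library factor (0.590 to 2.98). Errors come only from the standard errors in the authors' deposited comparison tables, whose median was 0.12 to 0.13 on the log2 scale. The sources used here do not say whether the deposited log2 fold changes were shrunk toward 0 in the fit. Fold changes, intervals and differences between genes below take them as deposited, and may be too small in size if they were shrunk. The p-values measure the spread between these libraries that is left after the authors' library date term. The labels do not say whether the 3 libraries of a group came from separate cultures, so that spread may be technical. Zfp36, the gene of TTP, had a level of 1369 in GFP, 1408 in TTP and 2215 in TTP-AA, so reads of the gene were present also in GFP, which carries no TTP transgene. TTP differed from GFP by only 0.04 ± 0.17 (log2, SE; DESeq2 adjusted p = 0.930), so the RNA level of this gene alone does not show the construct in the TTP libraries. Protein was not measured here, and the paper's western blots found GFP-TTP and GFP-TTP-AA expressed to a similar extent in these cells. TTP-AA exceeded GFP by 0.69 ± 0.17 (log2, SE; DESeq2 adjusted p = 0.000682). All 8 macrophage markers had fitted levels, although Mertk stood at only 16.4 to 19.8, and their sum was 539926 to 809358 in GFP, 449626 to 672489 in TTP and 612126 to 916456 in TTP-AA. Lyz2 alone had group means of 601349, 493607 and 678766, so the sum mostly follows that gene. Adgre1, whose product was used to select the cells, differed from GFP by -0.75 in TTP and by 0.68 in TTP-AA. Both changes of Adgre1 passed (DESeq2 adjusted p = 1.3e-05 and 7.0e-05). Fcgr1 differed from GFP by -1.20 in TTP (DESeq2 adjusted p = 3.0e-09) and by -0.39 in TTP-AA, which did not pass (0.121). In TTP vs GFP the other 5 of the 7 listed macrophage markers did not pass. Markers of T cells, B cells, NK cells, fibroblasts and epithelium summed to at most 5.39, and endothelial markers to 27.9 to 35.6 in GFP, 26.3 to 33.6 in TTP and 41.5 to 53.9 in TTP-AA. The neutrophil markers S100a8 and Camp summed to 122.6 to 197 in GFP, 123.5 to 199.5 in TTP and 199.4 to 329 in TTP-AA, S100a8 was higher in TTP-AA than in GFP by 0.76 ± 0.21 (DESeq2 adjusted p = 0.00415), and its part in the results below was not tested. In bulk RNA a smaller share of cells with a transcript and less transcript per cell cannot be told apart.

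All 10 genes were well expressed. Per kilobase of transcript, the mean normalized count over the 9 libraries was highest for Elavl1 (958), Mex3c (949.6), Zc3h12c (919) and Khsrp (835). Zc3h12a followed at 581, then Rc3h1 at 399, Tial1 at 374, Rc3h2 at 325, Hnrnpd at 307 and Tia1 at 248. HuR, the stabilizing reader, thus had more RNA per length than AUF1 on this scale. The fitted table gives no error for differences between genes, so neighbours in this order were not tested. Dividing by merged exons of each gene instead moved Elavl1 to 531 and Tia1 to 70.6 per kilobase and put Mex3c first.

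**Figure D2:**
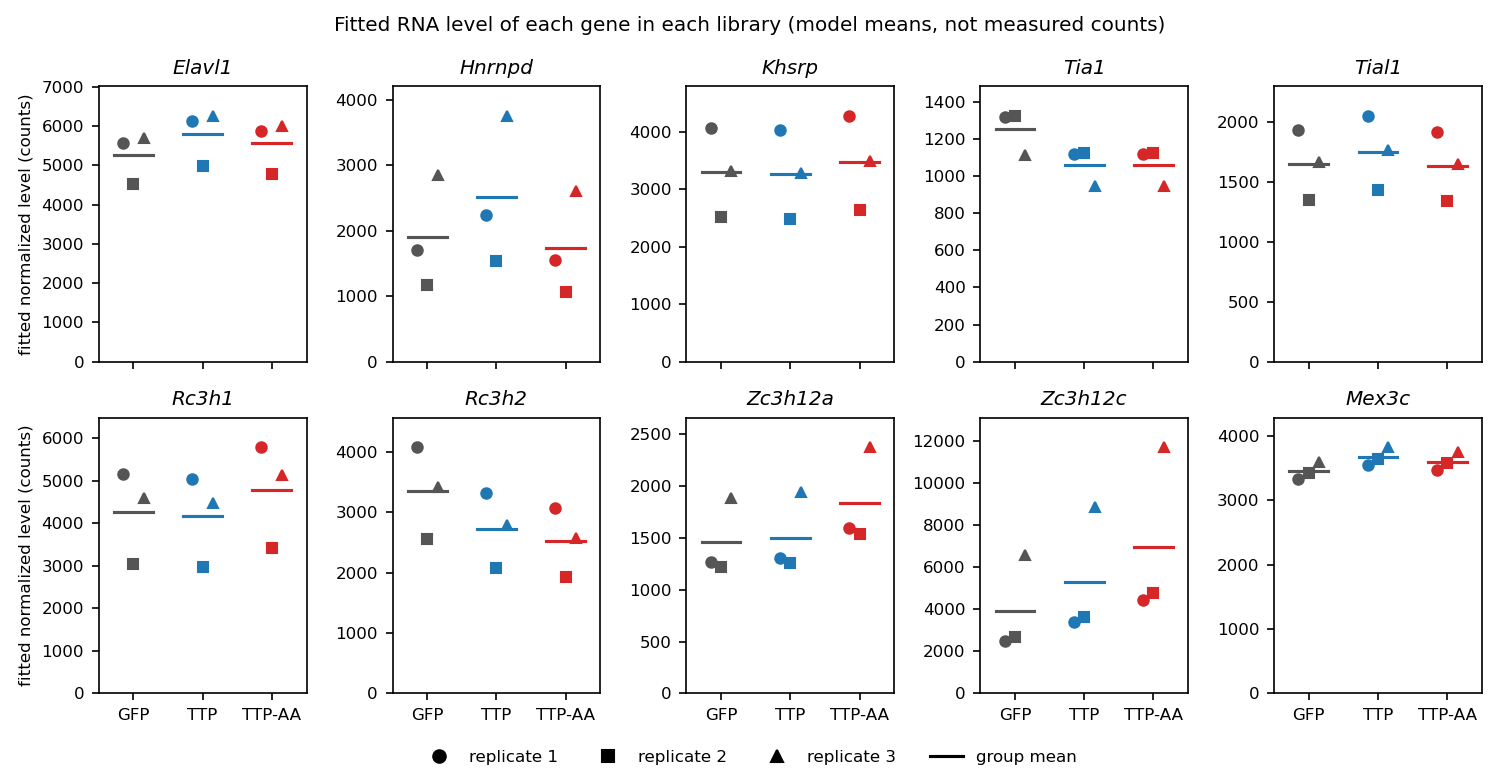
Fitted normalized level (y axis, normalized counts, linear from 0, a separate scale per gene) of each gene in the 9 libraries. Circles, squares and triangles are replicates 1, 2 and 3, which are model means without measured scatter, and lines are group means. The lines of Zc3h12c climb from 3911 over 5282 to 6974, while those of Mex3c (3453, 3672 and 3599) and Khsrp (3301, 3266 and 3472) stay nearly level.

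In the panels of fitted levels, the vertical distance between symbols of one colour is the replicate-number term and the shift between colours is the condition term. Both are taken up below.

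For TTP vs GFP, 1 of the 10 genes passed the DESeq2 adjusted p threshold of 0.05, beside 9.16% of all genes tested (4.08% higher and 5.08% lower). It was Hnrnpd, which was higher. For TTP-AA vs GFP, 3 of the 10 passed, beside 17.9% of all genes (9.11% higher and 8.77% lower). Zc3h12c and Zc3h12a were higher and Rc3h2 was lower. For TTP-AA vs TTP, 1 of the 10 passed, beside 28.6% of all genes (14% higher and 14.6% lower), and it was Hnrnpd, now lower. The first comparison shares the GFP libraries with the second and the TTP libraries with the third. The median log2 change of the 10 genes was 0.067, 0.066 and -0.015 in the same order, where the medians of all genes were 0.011, 0.0010 and -0.0098. Median sizes without sign were 0.11, 0.15 and 0.11 for the 10 genes and 0.13, 0.16 and 0.19 for all genes. A Wald test of any difference among the 3 groups (2 degrees of freedom, Benjamini-Hochberg adjustment over 11977 genes) called 4 of the 10, namely Zc3h12c, Hnrnpd, Rc3h2 and Zc3h12a, beside 33.1% of all genes. The spread of Wald scores over all genes was wider than the value of 1 that unchanged genes would give, at 1.51, 1.77 and 2.17 in the 3 comparisons. When the scores were divided by that spread, none of the 10 genes passed in any comparison (4, 4 and 3 had an unadjusted DESeq2 p under 0.05 as deposited), so every call of these 10 genes below rests on the standard errors as deposited.

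**Figure D3:**
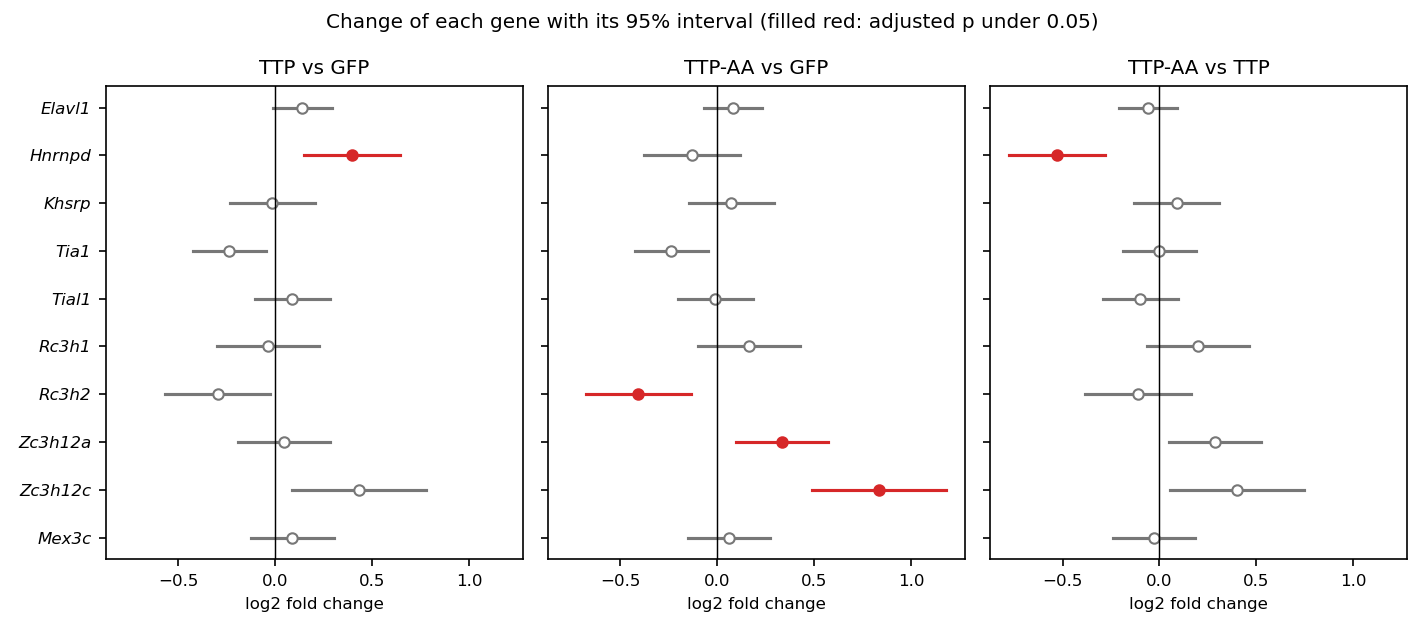
Log2 fold change (x axis) of each gene in the 3 comparisons, with bars for the 95% interval from the deposited standard error. Filled red symbols passed an adjusted p of 0.05 (Hnrnpd 0.40, then Rc3h2 -0.41, Zc3h12a 0.33 and Zc3h12c 0.83, then Hnrnpd -0.53).

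The plot of changes shows 5 red symbols over 30 estimates, and those of Hnrnpd point in opposite directions.

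Among the readers of AREs, Hnrnpd was the one that moved. Its gene lies at chr5:99955935-99978938 on the minus strand and encodes AUF1, which binds AREs of cytokine and growth factor mRNAs. Its fitted levels were 1699, 1165 and 2855 in GFP replicates 1 to 3, 2235, 1533 and 3756 in TTP, and 1549, 1063 and 2604 in TTP-AA. The TTP libraries were the highest and those of TTP-AA the lowest, an order that the fit makes the same at every number. The ranges of the 3 groups overlapped because replicate 3 was far above replicate 2 in each. Hnrnpd was 1.32-fold higher in TTP than in GFP (log2 0.40 ± 0.13, SE, 95% interval 0.15 to 0.64, DESeq2 adjusted p = 0.0243). Its difference between TTP-AA and GFP was -0.13 ± 0.13 (DESeq2 adjusted p = 0.534). TTP-AA therefore had less Hnrnpd RNA than TTP, at 0.693 of its level (log2 -0.53 ± 0.13, 95% interval -0.78 to -0.28, DESeq2 adjusted p = 0.000294). Part of the signal of Hnrnpd may be shared with other genes. Of the 50-base windows of its transcript, 5.70% occurred in transcripts of other genes, mostly in Gm17092, an antisense gene that overlaps 385 bases of its exons and was fitted at 4.15 to 4.37. Whether counting was stranded is not given in the sources used here.

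The remaining readers of AREs gave no call. Elavl1 (chr8:4285382-4325413, minus strand), whose 3′UTR holds the cluster of nonamers shown above, had group means of 5255 in GFP, 5792 in TTP and 5558 in TTP-AA. TTP differed from GFP by 0.14, TTP-AA from GFP by 0.08 and TTP-AA from TTP by -0.06, each ± 0.077, with DESeq2 adjusted p from 0.281 to 0.619. These were the smallest standard errors of the 10 genes. The 95% interval for TTP vs GFP was -0.011 to 0.29, that is 0.992-fold to 1.22-fold. It takes the standard error as deposited, although the Wald scores of this comparison had a spread of 1.51, so it sets no firm limit on a rise or a fall. Khsrp (chr17:57021051-57031522, minus strand), whose product binds AREs through KH domains and recruits the exosome, had group means of 3301, 3266 and 3472. Its changes were -0.015, 0.073 and 0.088, each with an SE of 0.11. Neither gene passed the threshold in any comparison, and every 95% interval included 0.

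TIA1 and TIAR are close relatives that silence ARE mRNAs such as that of Tnf. Tia1 (chr6:86404219-86433405, plus strand) had fitted levels of 1316, 1326 and 1113 in GFP, 1117, 1126 and 945 in TTP, and 1117, 1126 and 944 in TTP-AA. Both TTP constructs thus stood below GFP, at each number by construction of the fit, and at nearly the same level as one another. The change was -0.24 ± 0.096 against GFP for each, which did not pass (DESeq2 adjusted p = 0.107 for TTP and 0.0664 for TTP-AA), and the difference between TTP-AA and TTP was -0.00022 ± 0.096. The test among the 3 groups put Tia1 just outside the threshold (adjusted p = 0.0512). Tial1 (chr7:128439777-128461717, minus strand) had changes of 0.088, -0.011 and -0.098 with an SE of 0.099 each. The change of Tia1 minus that of Tial1 was -0.32 for TTP vs GFP, with a 95% interval of -0.59 to -0.054, if the errors of the 2 genes are taken as independent. For TTP-AA vs GFP the interval, -0.50 to 0.043, included 0. For Tia1, 6.87% of the 50-base windows occurred in the overlapping gene Gm44790, and for Tial1 none were shared.

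The hairpin readers held the other 3 calls. Zc3h12c (chr9:52111344-52168572, minus strand) encodes Regnase-3 and had the largest difference among groups of the 10 genes. Its fitted levels were 2497, 2676 and 6559 in GFP, 3373, 3615 and 8859 in TTP, and 4453, 4773 and 11696 in TTP-AA. The order was GFP, TTP, TTP-AA from low to high, which the fit makes the same at every number. The groups overlapped because replicate 3 was more than 2 times as high as the others in each. Zc3h12c was 1.78-fold higher in TTP-AA than in GFP (log2 0.83 ± 0.18, 95% interval 0.49 to 1.18, DESeq2 adjusted p = 6.1e-05). Neither of the steps to and from TTP passed, at 0.43 ± 0.18 from GFP to TTP (DESeq2 adjusted p = 0.106) and 0.40 ± 0.18 from TTP to TTP-AA (0.0723). Their intervals, 0.088 to 0.78 and 0.056 to 0.75, did not include 0 before adjustment over all genes. It was also the only call of the 10 to hold under Bonferroni adjustment.

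Zc3h12a (chr4:125118423-125127840, minus strand) encodes Regnase-1, the best studied nuclease of the family, which is degraded soon after LPS. Its fitted levels were 1262, 1221 and 1883 in GFP, 1303, 1260.1 and 1943 in TTP, and 1590.4, 1538 and 2373 in TTP-AA. GFP and TTP were close and TTP-AA stood above both, at each number by construction of the fit, and the 3 ranges overlapped. Zc3h12a was 1.26-fold higher in TTP-AA than in GFP (log2 0.33 ± 0.12, 95% interval 0.098 to 0.57, DESeq2 adjusted p = 0.0352). This call was lost when changes were centred on the median of each chromosome (adjusted p = 0.0566) or freed of a trend with GC content and length (0.0553). TTP differed from GFP by 0.05 ± 0.12, and TTP-AA from TTP by 0.29 ± 0.12 (DESeq2 adjusted p = 0.0568). The rise of Zc3h12c in TTP-AA over GFP exceeded that of Zc3h12a, with a difference (Zc3h12a minus Zc3h12c) of -0.50 and an interval of -0.92 to -0.083. For TTP-AA vs TTP the same difference was -0.11, with an interval of -0.53 to 0.31 that allows either order.

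The Roquin genes encode paralogous proteins that bind the same kind of hairpin, and both carry the hairpin nonamers printed above, yet only Rc3h2 passed a test. Rc3h2 (chr2:37370069-37422903, minus strand) had fitted levels of 4080.5, 2552 and 3418 in GFP, 3323, 2078 and 2784 in TTP, and 3075, 1923 and 2576 in TTP-AA. GFP was the highest and TTP-AA the lowest, at each number by construction of the fit, with ranges that overlapped. The level in TTP-AA was 0.754 of that in GFP (log2 -0.41 ± 0.14, 95% interval -0.68 to -0.14, DESeq2 adjusted p = 0.0236). TTP vs GFP gave -0.30 ± 0.14 (DESeq2 adjusted p = 0.183) and TTP-AA vs TTP -0.11 ± 0.14 (0.603). Rc3h1 (chr1:160906418-160974978, plus strand) had group means of 4268, 4162 and 4780 and changes of -0.036, 0.16 and 0.20, each with an SE of 0.13 and none past the threshold. In TTP-AA vs GFP the change of Rc3h1 minus that of Rc3h2 was 0.57 ± 0.19, with an interval of 0.19 to 0.95. The same difference was 0.26 in TTP vs GFP and 0.31 in the mutant against TTP, and those intervals, -0.12 to 0.64 and -0.067 to 0.69, included 0.

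Mex3c, on chromosome 18, passed in no comparison. Its group means were 3453, 3672 and 3599, and its changes were 0.089, 0.060 and -0.029 with an SE of 0.11 each. Over Elavl1, Khsrp, Tial1 and Mex3c, the 12 intervals lay within -0.29 and 0.31 on the log2 scale, that is between 0.817-fold and 1.24-fold. Larger changes than these were outside the 95% intervals for those 4 genes, which take the standard errors as deposited. With Rc3h1, which also gave no call, the 15 intervals reached from 0.813-fold to 1.38-fold. For Tia1, the remaining member without a call, the interval for TTP vs GFP reached down to 0.745-fold.

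**Figure D4:**
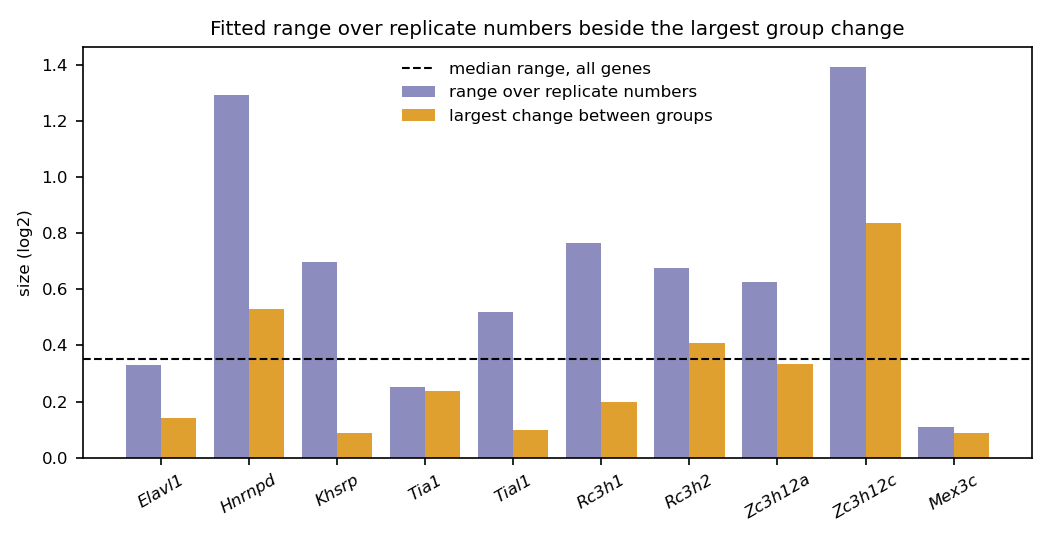
For each gene, the log2 range of the fitted replicate-number term (purple bars) beside the size of its largest change between groups (orange bars), both from 0. The dashed line is the median range of all 13205 genes (0.35). Purple exceeds orange for all 10 genes, with the largest ratio for Khsrp, and how often this holds over all genes was not computed.

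Differences between replicate numbers were wider than differences between groups for all 10 genes. The share of all genes for which this holds was not computed. Over all genes the median range, 0.35, was also above the median sizes of change, 0.13, 0.16 and 0.19 in the 3 comparisons. Those medians take each comparison by itself, whereas the count of 10 uses the largest of the 3 changes of each gene. Without the share over all genes, it cannot be said whether the count sets these genes apart. The authors' methods name library date as a model term, and the fitted term split the libraries exactly as their replicate numbers do. Its log2 range was 1.39 for Zc3h12c, above 98.6% of all genes, and 1.29 for Hnrnpd, above 98.1%. The median of all genes was 0.35, and 7 of the 10 genes lay above it. Rc3h1 (0.76), Khsrp (0.70), Rc3h2 (0.68), Zc3h12a (0.62) and Tial1 (0.52) followed, while Elavl1 (0.33), Tia1 (0.25) and Mex3c (0.11) were below. The bars of range beside change show that the genes with the largest group changes, Zc3h12c and Hnrnpd, also had the widest ranges between replicate numbers. Whether the group change of these genes was the same at each number could not be tested, since the table gives no measured value per library.

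The genes whose changes against GFP were closest to those of Zc3h12c, among 10423 genes with a mean of at least 100, were Dtna, Il3ra and 2500002B13Rik. The likeness was the distance between the pairs of log2 changes over the 3 groups, and it was 0.016, 0.050 and 0.062. Dtna, for a dystrophin-associated protein, had changes of 0.42 in TTP and 0.84 in TTP-AA. Il3ra, for the interleukin-3 receptor alpha chain, had 0.48 and 0.85.

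Relatives of the 10 genes included 1 with far wider changes than any member. Of 15 relatives (such as further Regnase, MEX3, FUBP and AUF1-like genes), 11 were listed. In TTP vs GFP none passed as higher, 1 was lower and 10 did not pass by DESeq2 (1 had an unadjusted p under 0.05). In TTP-AA vs GFP 2 were higher and 2 lower (17.9% of all genes passed), and in TTP-AA vs TTP 1 was higher and 3 were lower (28.6% of all genes). Median log2 changes were 0.089, 0.11 and 0.017, beside 0.011, 0.0010 and -0.0098 for all genes. The widest was Zc3h12d, which encodes Regnase-4 and had a mean normalized count of 408. Against GFP it was lower in TTP, at -1.41 ± 0.15 (DESeq2 adjusted p = 3.3e-18), and higher in TTP-AA, at 1.13 ± 0.14 (9.8e-14), which left TTP and TTP-AA 2.53 ± 0.15 apart (1.4e-62). Zc3h12d thus went opposite ways under the wild-type and the mutant construct, beside changes of 0.43 and 0.83 for Zc3h12c. Fubp3, a relative of Khsrp, was lower in TTP-AA than in GFP (log2 -0.45 ± 0.083) and than in TTP (log2 -0.50 ± 0.083). N4bp1, which shares the nuclease fold of the Regnases, was higher in TTP-AA than in GFP by 0.44 ± 0.15. Mex3a was lower in TTP-AA libraries than in those of TTP (log2 -0.62 ± 0.21). Hnrnpab, a relative of Hnrnpd named after its values were seen, had a change of -0.40 ± 0.084 from TTP to TTP-AA (DESeq2 adjusted p = 3.1e-05) and of -0.30 ± 0.084 from GFP to TTP-AA (0.00379), where Hnrnpd did not pass. It did not pass in TTP vs GFP (0.095 ± 0.084).

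Transcripts of genes whose proteins work with or control the members were followed in a list of 10, all listed. None passed by DESeq2 in TTP vs GFP (1 had an unadjusted p under 0.05), 1 was higher and 2 lower in TTP-AA vs GFP (17.9% of all genes passed), and 2 were higher and 3 lower in TTP-AA vs TTP (28.6%). The medians, 0.012, -0.032 and 0.0088, were near those of all genes. Arid5a, which protects stem-loop mRNAs from Regnase-1, was lower in TTP-AA than in GFP (log2 -0.63 ± 0.16). Ikbke, for a kinase of the innate immune response, was higher in TTP-AA than in GFP by 0.55 ± 0.15. Ddx6, for a helicase of decay bodies, was lower in TTP-AA than in GFP (log2 -0.47 ± 0.099). Bcl10, part of the complex whose protease cleaves Regnase-1 and Roquins, exceeded its TTP level in TTP-AA by 0.42 ± 0.13.

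Of 14 mRNAs that textbooks name as targets of Roquins or Regnases, 9 were listed for TTP vs GFP and 10 for the other comparisons. In TTP vs GFP 0 of 9 passed by DESeq2, and 0 had an unadjusted p under 0.05. In TTP-AA vs GFP 1 was higher and 1 lower of 10, beside 17.9% of all genes. In TTP-AA vs TTP 2 were higher and 2 lower, beside 28.6% of all genes. Median changes were -0.042, 0.22 and 0.29, and those of all genes 0.011, 0.0010 and -0.0098. Lcn2, for the siderophore-binding lipocalin-2, was higher in TTP-AA than in GFP by 0.44 ± 0.14. Ptgs2, for the prostaglandin synthase COX-2, exceeded its TTP level in TTP-AA by 0.45 ± 0.18 (DESeq2 adjusted p = 0.0481). Ier3, an early response gene with a hairpin nonamer, was lower in TTP-AA than in GFP (log2 -0.94 ± 0.16) and than in TTP (log2 -0.91 ± 0.16). Among the TTP family itself, Zfp36l2 was lower than in GFP in both TTP (log2 -0.42 ± 0.12) and TTP-AA (log2 -0.62 ± 0.12). Actb, a reference gene, differed by 0.23 ± 0.090 between TTP-AA and GFP (DESeq2 adjusted p = 0.0509) and by 0.24 ± 0.090 between TTP-AA and TTP (0.0276), beside 0.33 and 0.29 for Zc3h12a.

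**Figure D5:**
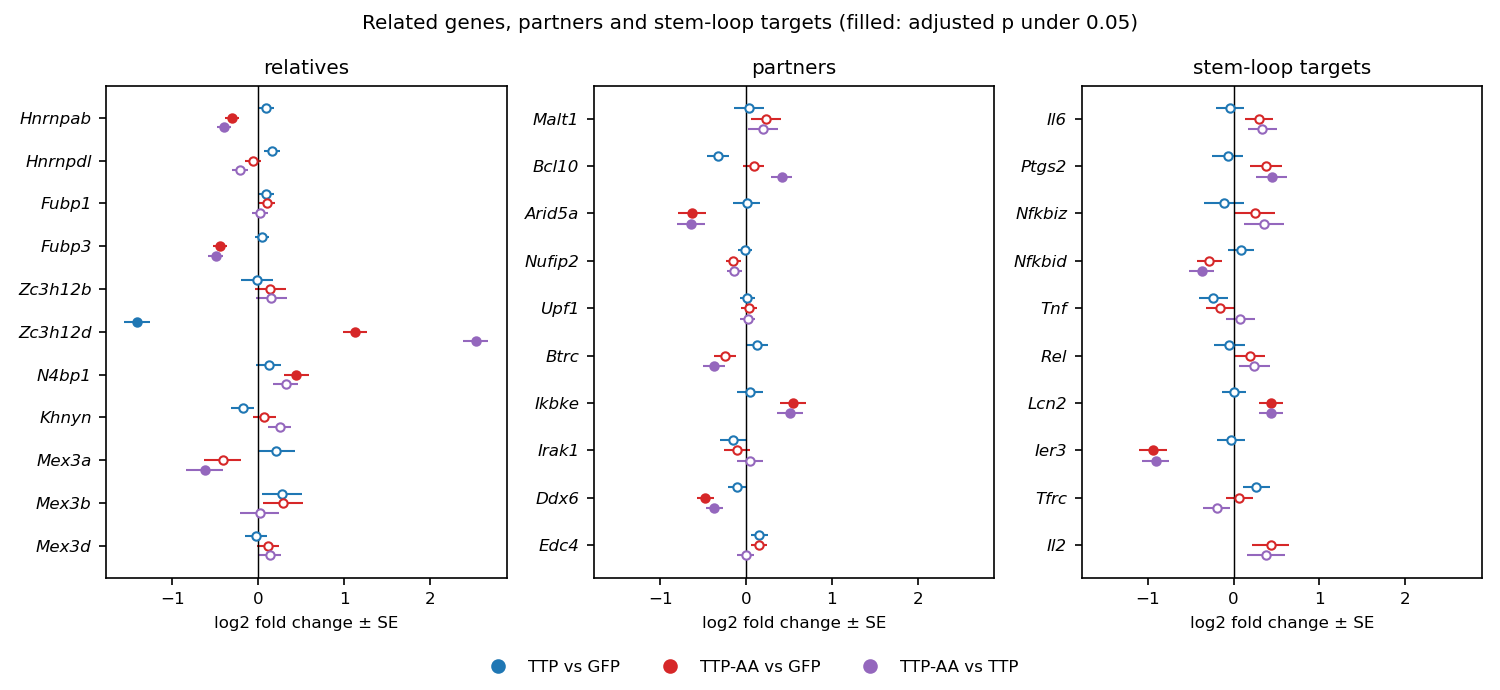
Log2 fold change ± SE (x axis) of the listed relatives, partners and stem-loop targets in the 3 comparisons, filled where the adjusted p was under 0.05. Zc3h12d stands farthest from 0 in every comparison (-1.41, 1.13 and 2.53), while most symbols of TTP vs GFP (blue) are open.

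The panels of related genes show 1 filled blue symbol, that of Zc3h12d.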

How the data were processed

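RNA depleted of ribosomal RNA was sequenced as 50 base single-end reads. Per the labels and methods, the authors trimmed with Trim Galore, aligned to GRCm38 with TopHat allowing 2 placements per read (the submitters' notes name TopHat2 2.0.12), counted with HTSeq and fitted DESeq2 1.6.3 with library date and condition. The deposited library signal, named as normalized counts, was checked: its log2 ratios equalled the deposited log2 fold changes plus a constant (largest deviation 1.5e-14), so these are fitted means. The authors' deposited tables also gave a log2 fold change, its standard error, a Wald score, a p-value and an adjusted p-value per gene. With no measured value per library, these took the place of a refit. They are the authors' own comparison values, used because the library table has no error.

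Library factors, fitted levels and 95% intervals were computed here with scipy 1.17.1, pandas 2.3.3 and numpy 2.4.6 (Python 3.11.15). So were the Wald test with 2 degrees of freedom and the 3′UTR matches (GENCODE 21). That Wald test was run on changes simulated with the deposited standard errors, which cannot show whether those errors are wide enough. Groups and replicate numbers came from the sample titles. Alternatives rescaled, recentred or readjusted the Wald scores. The genes and lists were chosen with earlier results of these data known. Named outside the 10 genes were up to 3 genes per list and comparison with the largest change at an adjusted p under 0.05, overlapping genes, the 3 most like Zc3h12c, and Zfp36 and Actb. Hnrnpab, Btrc, Nfkbid, Adgre1, Fcgr1, Lyz2 and S100a8 were named after their values were seen. Protein sequences were not used here.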

Additional observations from a re-analysis of the deposited data

Results flagged for a closer look

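Among the 10 genes and the relatives, TTP family, partners and stem-loop targets, the changes against GFP differed between TTP and TTP-AA for 15 genes by the direct DESeq2 test between these constructs (adjusted p under 0.05), in which the GFP libraries cancel. Listed in that comparison were 10 members, 11 relatives, 2 genes of the TTP family, 10 partners and 10 stem-loop targets. Of all genes 28.6% passed, and an excess of the 15 over that share was not tested. Hnrnpd was the single member among the 15, with a difference of -0.53 (log2, TTP-AA minus TTP). Among the relatives the difference was 2.53 for Zc3h12d, -0.62 for Mex3a, -0.50 for Fubp3 and -0.40 for Hnrnpab. Among the partners it was -0.64 for Arid5a, 0.51 for Ikbke, 0.42 for Bcl10 and -0.37 for each of Ddx6 and Btrc. Among the stem-loop targets it was -0.91 for Ier3, 0.45 for Ptgs2, 0.43 for Lcn2 and -0.37 for Nfkbid. Zfp36 itself differed by 0.65. In groups of 3 libraries, single libraries were not examined for standing apart, and fitted means would not show it.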

How the results depend on the processing

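No paired analysis was possible because the library table holds fitted means, in which the replicate-number term is already part of the authors' model and leaves no residual. For the same reason leaving out each library, dropping the replicate term, other pseudocounts and filters on measured counts were not run. Restricting the adjustment to genes whose mean reached 50, or for the pairwise comparisons over genes in all 3 tables, changed no call of a member. With Wald scores divided by their central spread, 0 members passed in each of the 3 comparisons and 0 in the test among the 3 groups (unadjusted p under 0.05 by DESeq2 as deposited: 4, 4 and 3). The adjusted p of Hnrnpd then became 0.541 against GFP in TTP and 0.566 for TTP-AA vs TTP, and that of Zc3h12c 0.212, of Rc3h2 0.698 and of Zc3h12a 0.743 for TTP-AA vs GFP. Over all genes 249, 197 and 264 then passed instead of 1097, 2361 and 3780, and 418 instead of 3965 in the test among the groups. Under Bonferroni adjustment 0, 1 and 0 members passed, and 0 in the test among the groups, with 289, 502, 941 and 1034 genes in all. Centring on the median of all genes gave 2 members for TTP-AA vs TTP, as Zc3h12a joined at 0.30 (adjusted p = 0.0481), and turned Tia1 in that comparison to 0.0095. Removing the GC and length trend turned Rc3h1 in TTP vs GFP to 0.0064. In these last cases, the changes were near 0 and neither gene passed, and the cause was not tested. Of 240 results for a single member under an alternative, 218 kept their direction and side of the threshold. The test among the groups is included. Of the rest, 19 lost the call, 1 gained it and 2 changed sign. Most of the 240 concerned members without a call in the main setting, which had none to lose. The 218 therefore do not measure how stable the calls were.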
